A study of Mus musculus with 24 samples.

Results

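The genes described here are 9 liver genes of nitrogen disposal and amino acid breakdown: Nags, Cps1, Ass1, Asl and Arg1 of the urea cycle, Tat and Hpd of tyrosine breakdown, Tdo2 of tryptophan breakdown, and Mat1a of methionine metabolism. They are 9 of 20021 autosomal protein-coding RefSeq genes, and they were chosen by name, with earlier results of these data known. Every 100 bp tile whose centre lay between 5000 bp upstream of the transcription start and the end of the gene on mm10 was taken, and the start was that of the RefSeq Select transcript. For Tat this start (chr8:109990436) lies inside the annotated gene, which begins at chr8:109986078. The same holds for Cps1 (start chr1:67123027, gene from chr1:67122426) and Mat1a (start chr14:41105033, gene from chr14:41105012). The liver, brain and heart tables held 171, 185 and 183 tiles of these genes, and 161 were present in all 3 tables, out of 758685 such tiles in the whole genome. Of the 161 tiles, 11 were far upstream (5000 bp to just over 1000 bp before the start), 25 were in promoters (1000 bp before to 500 bp after the start) and 125 were in gene bodies.

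DNA methylation had been measured by enhanced reduced representation bisulphite sequencing, which reads CpG-rich fragments, in 24 libraries from C57BL/6J mice aged 24 weeks. The liver group held 12 libraries, from 6 males and 6 females, and the brain and heart groups held 6 each, from 3 males and 3 females. The mice carried no mutation or treatment in the labels. DNA came from 1 defined piece of each snap-frozen tissue: a rostral coronal section of brain, an apical section of heart and a caudal part of the left liver lobe. The library columns carried no mouse or gender, so no male and female levels could be set apart, and the comparison made here is between tissues. The unit is the methylation level, the percentage of CpG calls in a tile that were methylated. In bulk tissue a level of this kind cannot tell apart the share of cells that are methylated from partial methylation in every cell, or a change in the mixture of cell types. Over the shared tiles the library means were 64.8 to 66.1% in liver, 63.7 to 66.4% in brain and 59.6 to 60.3% in heart. The heart libraries were thus lower on average over these tiles. The tissue check used promoters of marker genes. The 2 measured liver markers were both lowest in the liver table, 6 of 7 measured brain markers were lowest in the brain table, and 1 of 3 measured heart markers was lowest in the heart table.

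The urea cycle turns ammonia released from amino acids into urea. It runs in full in hepatocytes, where Cps1, Ass1, Arg1 and the enzymes of tyrosine and tryptophan breakdown are abundant. CpG-dense promoters are usually unmethylated in every tissue, whether or not the gene is used, whereas CpG-poor promoters and enhancers of tissue-restricted genes often lose methylation in the tissue that uses them.

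Across the 161 tiles liver was the low tissue. A tile was called different at an adjusted p of 0.01 or less (limma, Benjamini-Hochberg over all 758685 tiles) with tissue means 25 percentage points or more apart. Liver was lower than brain and also lower than heart in 40 of the 161 tiles, against 2.46% of all tiles, and it was higher than both in 0, against 2.06% of all tiles; in limma 7 tiles were higher in both at an unadjusted p under 0.05. By a count that needs no model, every liver library lay below every brain and heart library in 44 tiles, against 3.06% of all tiles. Taken singly, liver was lower than brain in 57 tiles (4.76% of all tiles) and higher in 6 (5.04%), and lower than heart in 47 (2.87%) and higher in 1 (7.94%). Brain was lower than heart in 9 tiles (1.76%) and higher in 11 (7.71%). When all libraries were shifted to a common mean, brain was lower in 15 and higher in 10, while liver was lower than heart in 58 and higher in 0 (limma; 1 tile was higher without the shift). The median difference over the 161 tiles was -13.6 points for liver minus brain, against 0.28 over all tiles, and -5.7 points for liver minus heart, against 3.5 over all tiles. Neighbouring tiles of a gene share fragments and are not independent. The tiles that were low in liver were spread over all 9 genes, with at least 1 in each, and comprised 2 of the 11 far upstream tiles, 5 of the 25 promoter tiles and 33 of the 125 body tiles. The share over all tiles of each zone was not computed, so these counts do not tell whether a zone is unusual.

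**Figure D1:**
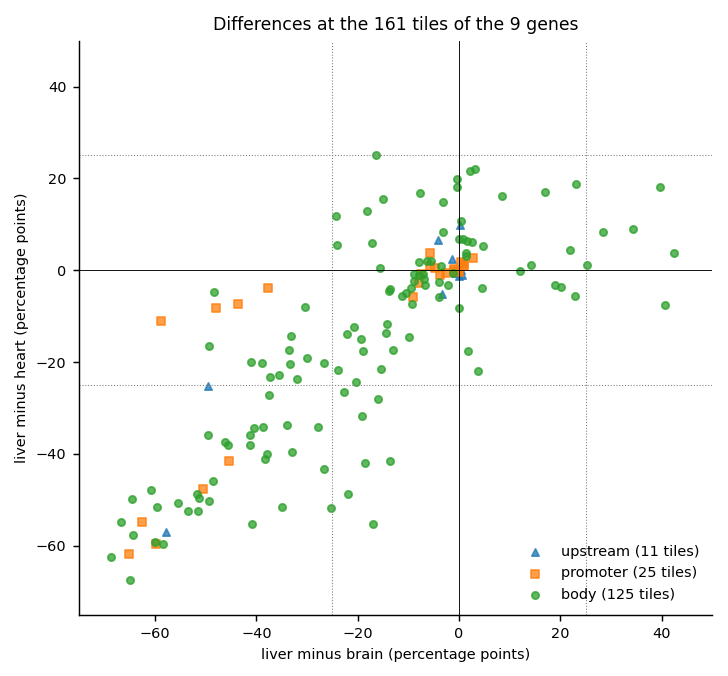
Difference in methylation level at each of the 161 tiles, liver minus brain (x axis) against liver minus heart (y axis), both in percentage points; dotted lines mark 25 points. Most large differences fall at the lower left, where liver is below both tissues, and the points beyond 25 at the right, where liver is above brain, are all body tiles. Both axes use the same liver libraries.

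The position of the low tiles along each gene differed from gene to gene. In Mat1a they lay before the start, in Hpd from the first introns to the middle of the gene, in Tat from exon 6 to the last exon, in Asl in 1 intron and in Nags in the last exon.

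**Figure D2:**
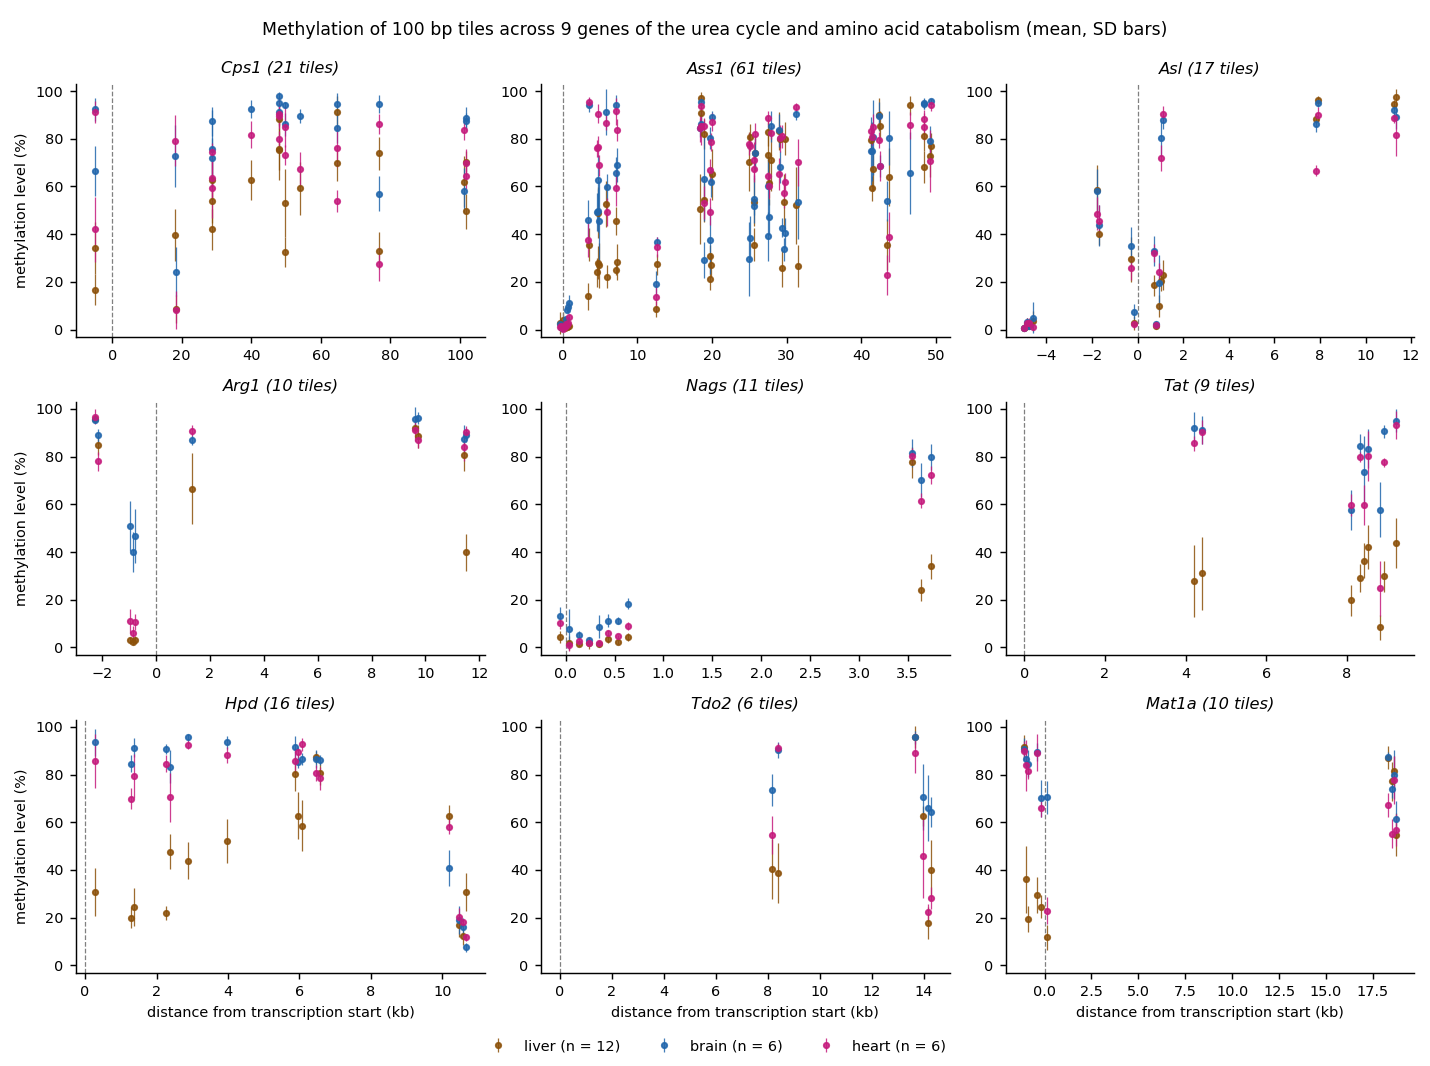
Methylation level (%, y axis) of every shared tile of the 9 genes against its distance from the transcription start in kb (x axis); points are means and bars are the SD over 12 liver, 6 brain and 6 heart libraries. Liver points lie far below the other tissues upstream of Mat1a, in the first part of Hpd and across the measured part of Tat, and all 3 tissues are near 0 at the starts of Ass1 and Nags.

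Promoter levels were measured for 6 of the 9 genes, since Cps1, Tat and Tdo2 had no shared tile there. A promoter or gene body was called different at an adjusted p of 0.01 or less (limma, over 14675 promoters or 16692 bodies) and a difference of at least 10 points. Lower levels in liver than in brain were called in 3 of the 6 promoters, Arg1, Hpd and Mat1a, against 4.24% of all promoters, and lower than heart in 2, Hpd and Mat1a, against 2.37%. These same 2 promoters were the ones called lower in both comparisons, against 2.04% of all promoters. Brain was higher than heart in 2, Arg1 and Mat1a, against 6.58%.

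**Figure D3:**
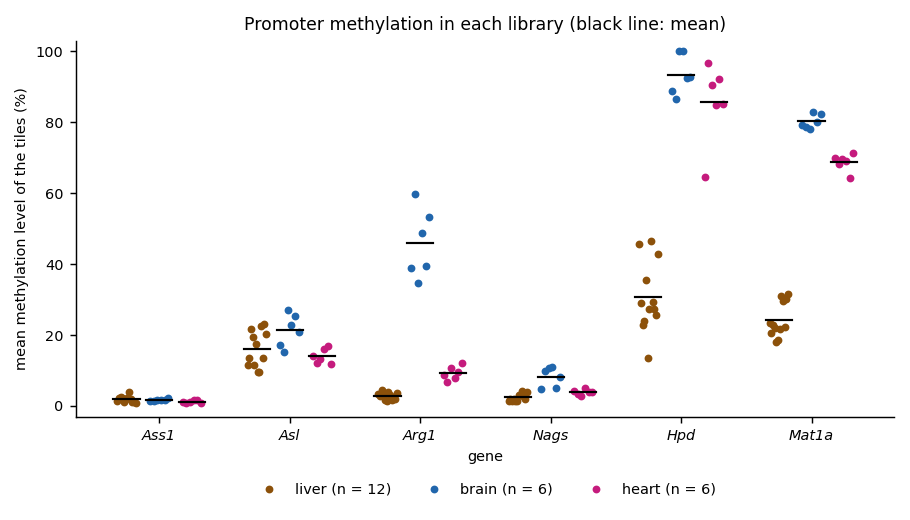
Mean methylation level (%) of the promoter tiles of each gene in each library, with the tissue mean as a black line. The liver libraries of Hpd and Mat1a lie below all brain and heart libraries, Arg1 is highest in brain, and the promoters of Ass1 and Nags are low in all libraries.

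Gene bodies, from beyond 500 bp after the start to the end of the gene, were measured for all 9 genes. Of the 9 bodies, liver was lower than brain in 7, against 7.63% of all bodies, and lower than heart in 7, against 4.36%. It was lower than both in 6 (Cps1, Asl, Arg1, Nags, Tat and Hpd), against 3.85% of all bodies. Liver was higher than heart in 1 body, that of Mat1a, against 19.9% of all bodies. Brain was higher than heart in 3 bodies (Cps1, Tdo2 and Mat1a), against 15.8%. After the shift to a common library mean, brain was lower than heart in 1 body (Ass1) and higher in 1 (Tdo2), and all 8 bodies called between liver and heart were lower in liver.

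**Figure D4:**
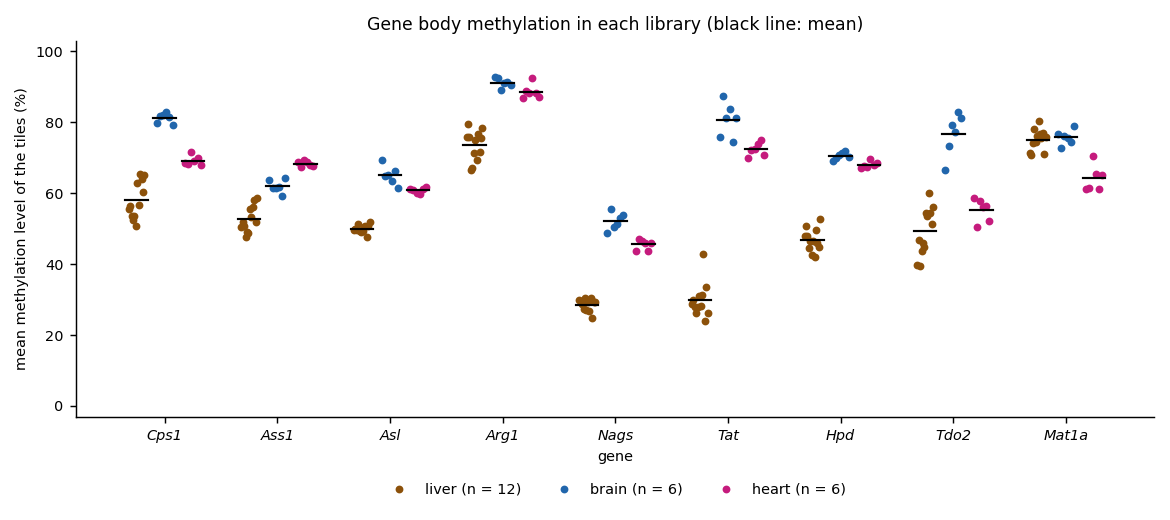
Mean methylation level (%) of the gene body tiles of each gene in each library, with the tissue mean as a black line. Liver libraries lie below all brain and heart libraries in 7 of the 9 genes, the exceptions being Tdo2, where liver overlaps heart, and Mat1a, where liver overlaps brain.

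Nags makes N-acetylglutamate, the activator that Cps1 needs. Its start is CpG-dense, with 64 CpGs within 500 bp to either side of it (observed to expected ratio 0.69), and a tile with 12 CpGs, the most of the 161 together with 1 tile upstream of Asl, lies in its coding exon 1 at chr11:102145701-102145800 (plus strand, mm10). It is shown as an example of a tile that was near 0 in every tissue, with each CpG in capitals.
Nags exon 1: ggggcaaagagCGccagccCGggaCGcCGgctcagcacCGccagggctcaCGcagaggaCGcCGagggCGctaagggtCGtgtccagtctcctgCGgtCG
This tile had 1.9% in liver libraries on average, 2.9% in those of brain and 1.7% in those of heart. Over the 6 promoter tiles of Nags, liver libraries had a lowest value of 1.3%, a median of 2.0% and a highest value of 4.3%, brain libraries 4.7, 9.0 and 10.9%, and heart libraries 2.9, 4.0 and 5.0%. All brain libraries lay above all liver libraries, by 5.8 ± 0.76 points (SE; limma adjusted p = 5.6e-07), which is under the size needed for a call. The higher brain values went on into intron 1, where the tile centred 638 bp after the start had 4.5% in liver, 18.4% in brain and 9.1% in heart.

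The Nags body gave another picture at its far end. Over its 5 tiles the liver libraries ran from 24.8% (median 29.2%) to 30.6%, the brain libraries from 48.8% (median 52.2%) to 55.7% and the heart libraries from 43.7% (median 46.0%) to 47.2%. Against brain liver was lower by 23.7 ± 0.94 points and against heart by 17.0 ± 0.94 points (SE; limma adjusted p = 1e-16 and 4.3e-14). Of the 3 tiles of exon 7, 2 were called in both comparisons, and these lie in the 3′ UTR. The tile at chr11:102149201-102149300 had 34.1% ± 5.2 in liver (SD, n = 12), 79.7% ± 5.5 in brain and 72.2% ± 3.7 in heart (SD, n = 6 each), whereas the tile that holds the stop codon, nearer to the start, had 77.7, 81.6 and 80.2%.

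Cps1 makes carbamoyl phosphate from ammonia in the mitochondrion, the entry step of the cycle. Its start is CpG-poor, with 8 CpGs in the same window, and no shared tile lay in its promoter, but 2 tiles lay nearly 5 kb upstream. Over these tiles the liver libraries ran from 15.5% (median 22.8%) to 39.3%, the brain libraries from 70.8% (median 80.7%) to 88.4% and the heart libraries from 58.9% (median 63.8%) to 82.1%. No liver library reached a brain or heart library, and the differences were -53.8 ± 3.6 points from brain and -41.1 ± 3.6 points from heart (SE; limma adjusted p = 2.3e-12 and 3.3e-10). Both tiles were called singly in both comparisons. The larger difference was at chr1:67118101-67118200, 4876 bp before the start, with 34.4% ± 10.9 in liver, 92.3% ± 4.8 in brain and 91.3% ± 4.5 in heart (SD).

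Within the body of Cps1, 19 tiles were spread over a gene of 108842 bp. The body means ran from 50.6% (median 56.5%) to 65.4% in liver, from 79.3% (median 81.6%) to 82.8% in brain and from 67.8% (median 68.8%) to 71.5% in heart. The 3 tissues did not overlap, with liver below heart and heart below brain. The liver mean was lower by 23.1 ± 1.9 points than brain and by 11.1 ± 1.9 points than heart (SE; limma adjusted p = 8.6e-11 and 8.9e-06), and brain was higher than heart by 12 ± 2.2 points (adjusted p = 3.1e-05), a call that was lost, at 6.58 points, when all libraries were shifted to a common mean. Single tiles were called lower in liver than in brain in 8 of 19 and called lower than in heart in 2. These 2 lay in intron 2, at 39.6% in liver against 72.6 and 79.3%, and at the edge of exon 18, at 32.5% against 86.1 and 85.1%.

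Ass1 joins citrulline and aspartate, and unlike Cps1 it is used in many cell types outside the liver. Its start is CpG-rich, with 54 CpGs in that window. The 250 bases before the start hold 23 of them and overlap the 2 most CpG-rich tiles upstream of the gene, so they are shown, on the plus strand (chr2:31470020-31470269, RefSeq, GRCm38.p6), with CpGs in capitals.
Ass1 promoter: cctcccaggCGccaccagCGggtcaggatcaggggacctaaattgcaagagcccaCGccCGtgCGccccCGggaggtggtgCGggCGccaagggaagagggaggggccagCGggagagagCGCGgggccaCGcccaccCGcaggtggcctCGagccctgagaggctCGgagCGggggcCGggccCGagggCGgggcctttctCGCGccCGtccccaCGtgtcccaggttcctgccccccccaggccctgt
Over the 8 promoter tiles the libraries ran from 0.75% (median 1.9%) to 3.9% in liver, from 1.5% (median 1.6%) to 2.2% in brain and from 0.81% (median 1.1%) to 1.7% in heart. The ranges overlapped, and no difference reached 1 point. In the 3 tiles from 500 to 1000 bp after the start liver stayed at 1.2 to 1.6%, while brain had 8.4 to 11% and heart 2.0 to 5.3%.

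The body of Ass1, with 53 tiles the best covered of the 9, held tiles that were low in liver and tiles that were low in brain. In the stretch from 3 to 8 kb after the start 7 of 11 tiles were called lower in liver than in both other tissues. The median tile had 28.0% in liver, 62.5% in brain and 76.7% in heart. The largest difference was in intron 1 at chr2:31473701-31473800, shown here on the plus strand because its 2 CpGs, in capitals, were nearly fully methylated in brain and heart and mostly unmethylated in liver.
Ass1 intron 1: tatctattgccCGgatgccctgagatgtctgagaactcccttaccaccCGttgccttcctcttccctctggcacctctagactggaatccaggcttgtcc
The level of this tile ran from 26.7% (median 35.0%) to 45.7% in liver, from 88.7% (median 94.6%) to 97.4% in brain and from 91.5% (median 95%) to 98.7% in heart. The differences were -58.4 and -59.6 points, each ± 2.9 (SE; limma adjusted p = 4e-15 and 4.2e-15).

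From 24 to 32 kb, in introns 9 to 12 of Ass1, the order changed. Liver was called higher than brain in 4 of 16 tiles and lower than both tissues in 2, and brain was called lower than heart in 5. The tile centred 24981 bp after the start had 70.3% in liver, 29.7% in brain and 77.9% in heart, and the tile 100 bp on had 80.7, 38.3 and 76.9%. In the last stretch, from 41 to 50 kb, no tile was lower in liver than in both, and in intron 13 the tile at 43681 bp was the one tile of the 161 that was higher in liver than in heart, with 63.9% in liver, 80.2% in brain and 38.9% in heart. In all, 12 of the 53 body tiles were called lower in liver than in both tissues. Calls were higher in liver than in brain in 6 and lower in brain than in heart in 8.

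Averaged over the body, Ass1 ran from 47.6% (median 51.9%) to 58.6% in liver, from 59.3% (median 61.5%) to 64.4% in brain and from 67.4% (median 68.3%) to 69.5% in heart. Every liver library was below every other library. Liver was lower than heart by 15.7 ± 1.4 points (SE; limma adjusted p = 1.6e-10). It was 9.3 ± 1.4 points from brain (adjusted p = 1.6e-06), under the 10 points needed for a call; with all tiles of each table it was -11.9 points and passed. Brain was 6.4 ± 1.6 points below heart (adjusted p = 0.00098), which was not called, but the difference passed at -13.9 points with the median over tiles and at -11.8 points after the shift to a common library mean.

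Asl splits argininosuccinate into arginine and fumarate. Of its 2 promoter tiles, the one centred 170 bp before the start had 2.8% in liver, 7.5% in brain and 2.3% in heart and the one 100 bp further up had 29.5, 35.2 and 25.8%. The promoter means overlapped between the tissues, with 9.7 to 23.2% in liver, 15.3 to 27.0% in brain and 11.8 to 17.0% in heart, and none of the 3 comparisons was called. The 4 tiles furthest upstream, at 0.85 to 3.6% in liver and under 5% in brain and heart, lie close to the start of the neighbouring gene Crcp.

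A sharp step lay inside intron 2 of Asl. The 3 tiles from 0.7 to 0.95 kb after the start had 1.3 to 18.5% in liver, 2.4 to 33.0% in brain and 1.9 to 32.2% in heart, with no call. In the next 2 tiles, at 1030 and 1130 bp, brain had 80.2 and 87.8% and heart 72.1 and 90.4%, whereas liver stayed at 20.5 and 22.9%. At the tile chr5:130023201-130023300 the liver libraries ran from 7.4% (median 25%) to 31.3%, the brain libraries from 80.9% (median 88.8%) to 90.9% and the heart libraries from 87.3% (median 89.8%) to 95.8%. The differences of -64.9 and -67.6 points, each ± 2.8 (SE; limma adjusted p = 3.8e-16 and 3e-16), were among the largest of the 161 tiles. The 4 tiles at the far end of the gene had 88.3 to 97.5% in liver, with no call.

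The body mean of Asl averaged these 2 called tiles with 7 that were not called. It ran from 47.8% (median 49.8%) to 52.0% in liver, from 61.3% (median 65.0%) to 69.3% in brain and from 59.9% (median 61.0%) to 61.8% in heart. Liver was lower than brain by 15 ± 0.81 points and lower than heart by 10.8 ± 0.81 points (SE; limma adjusted p = 3.4e-14 and 9.8e-12), with no overlap of liver with either tissue. Brain was 4.2 ± 0.93 points above heart, which was not called; with the median over tiles the difference was 12.6 points and passed, and after the shift to a common library mean it was -1.25 points.

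Arg1 cleaves arginine to urea and ornithine, the last step of the cycle. Its 3 promoter tiles, 781 to 981 bp before the start, set brain apart from the other tissues. The liver libraries ran from 1.5% (median 2.9%) to 4.6%, the heart libraries from 6.8% (median 9.2%) to 12%, and the brain libraries from 34.8% (median 44.2%) to 59.9%. The tissues did not overlap. The liver level was lower than that of brain by 43.1 ± 2.3 points (SE; limma adjusted p = 1.8e-14) and brain higher than heart by 36.6 ± 2.6 points (adjusted p = 4.9e-11). The liver and heart values were 6.5 ± 2.3 points apart, which was not called (adjusted p = 0.027), although all liver libraries lay below all heart libraries. After the shift to a common library mean this difference was -12.03 points and passed. That shift uses the mean of all tiles, where liver minus heart was 5.546 points on average. Over all promoters the median of liver minus heart was 0.33 points, so the shift is large for a promoter.

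Further up, 2 tiles of Arg1 more than 2 kb before the start were methylated in all tissues, at 90.3% in liver, 92.1% in brain and 87.5% in heart. The body, with 5 tiles, ran from 66.7% (median 75.3%) to 79.6% in liver, from 89.1% (median 91.2%) to 92.7% in brain and from 86.8% (median 88.1%) to 92.4% in heart. Liver was lower by 17.6 ± 1.6 points than brain and by 15 ± 1.6 points than heart (SE; limma adjusted p = 5.8e-10 and 5.6e-09), a difference from heart that dropped to -8.0 points with the median over tiles. It rested mostly on the tile in intron 7 at chr10:24915901-24916000, which was called singly: 39.8% ± 7.9 in liver, 89.2% ± 2.9 in brain and 90.2% ± 2.6 in heart (SD). The neighbouring tile, 100 bp nearer to the start, had 80.8, 87.5 and 83.9%. In intron 1 the tile centred 1319 bp after the start, all of it repeat in the reference, also contributed. It had 66.65% in liver, 87.0% in brain and 91.0% in heart and was not called, with liver libraries from 45.1 to 100%.

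Tat starts tyrosine breakdown by removing the amino group, and its expression in liver is induced by glucocorticoids. No shared tile lay within 4 kb after its Select start, and the 9 tiles measured reach from exon 6 to the last exon. The body ran from 24.1% (median 28.4%) to 42.8% in liver, from 74.5% (median 81.2%) to 87.4% in brain and from 69.9% (median 72.3%) to 75.0% in heart. This was the largest body difference of the 9 genes, -50.8 ± 2.1 points from brain and -42.6 ± 2.1 points from heart (SE; limma adjusted p = 1.7e-16 and 3.9e-15). All 9 tiles were called lower in liver than in brain and 7 were called lower than in heart as well. The tile with the largest difference covers the end of exon 6 and the start of intron 6 (chr8:109994601-109994700, plus strand), and its 5 CpGs are in capitals.
Tat exon 6: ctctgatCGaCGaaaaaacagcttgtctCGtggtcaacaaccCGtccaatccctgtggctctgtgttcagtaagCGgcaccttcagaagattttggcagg
The liver libraries were spread widely at this tile, from 6.2% (median 26.5%) to 58.9%, and still lay below brain, from 81.2% (median 95.1%) to 98.3%, and heart, from 82.6% (median 85.2%) to 88.7%. In the 3′ UTR the tile centred 8815 bp after the start stood out, since heart was low there too, with 8.4% in liver, 57.8% in brain and 24.8% in heart, and brain was called higher than heart.

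Hpd converts 4-hydroxyphenylpyruvate to homogentisate, the step after Tat. Its promoter was represented by 1 tile, in intron 2 at chr5:123182401-123182500, 272 bp after the start. The libraries ran from 13.5% (median 28.1%) to 46.4% in liver, from 86.5% (median 92.7%) to 100% in brain and from 64.7% (median 87.9%) to 96.7% in heart. Liver did not overlap brain or heart, whereas brain and heart overlapped. The difference was -62.7 ± 4.4 points from brain and -54.9 ± 4.4 points from heart (SE; limma adjusted p = 6.6e-12 and 1.1e-10).

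The low liver levels of Hpd continued along the gene. From the start to 6.1 kb, 7 of 10 tiles were called lower in liver than in both tissues. The median tile had 45.8% in liver, 91.0% in brain and 85.8% in heart. The largest difference of all 161 tiles from brain, -68.7 ± 2.1 points, lay in intron 6 at chr5:123180401-123180500, with -62.5 ± 2.1 points from heart (SE; limma adjusted p = 8.9e-19 and 6.7e-18). It is shown on the plus strand with its 4 CpGs in capitals; 55 of its bases are masked as repeat in the reference.
Hpd intron 6: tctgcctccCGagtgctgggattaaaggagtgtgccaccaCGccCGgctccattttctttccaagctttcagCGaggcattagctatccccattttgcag
At this tile the liver libraries ran from 18.1% (median 21.7%) to 26.5%, the brain libraries from 88.3% (median 90.7%) to 93.9% and the heart libraries from 79.1% (median 85.2%) to 88.0%. The 6 tiles from 6.4 kb onwards held no call, and the last tile of exon 14 had 30.6% in liver, 7.6% in brain and 11.8% in heart, with every liver library above every other library. The body mean of Hpd ran from 41.9% (median 46.5%) to 52.7% in liver, from 69.1% (median 70.6%) to 71.8% in brain and from 67.0% (median 67.8%) to 69.5% in heart, and the differences of -23.7 and -21.2 points, each ± 1.2 (SE; limma adjusted p = 7.2e-15 and 4.4e-14), were called.

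Of the 6 member promoters, that of Hpd had the largest distance of liver from the mean of brain and heart. Among 12292 genes with at least 3 promoter tiles, outside the lists used here, the 3 promoters nearest to it over the 3 tissue means were those of Tmprss6 (28.8% in liver, 90.8% in brain and 86.6% in heart), Fam47e (28.2, 91.6 and 87.9%) and A1cf (25.5, 90.6 and 85.2%). Their Euclidean distances from Hpd were 3.43, 3.86 and 6.03 points.

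Tdo2 opens the tryptophan ring, the first step of the kynurenine pathway. Its start is the poorest in CpGs of the 9 genes, with 6 within 500 bp, and its 6 shared tiles all lay more than 8 kb into the gene. The body ran from 39.6% (median 49.2%) to 59.9% in liver, from 66.5% (median 78.3%) to 82.8% in brain and from 50.3% (median 56.3%) to 58.7% in heart. Liver and brain did not overlap and differed by -27.5 ± 2.8 points (SE; limma adjusted p = 4.4e-09), and brain was higher than heart by 21.5 ± 3.2 points (adjusted p = 2.5e-06). Liver and heart overlapped, with -6.0 ± 2.8 points between them (adjusted p = 0.05), so no difference was called; after the shift to a common library mean it was -11.6 points and passed. The tile in intron 6 at chr3:81967301-81967400 differed from this average, since brain and heart were alike there, and is shown on the plus strand with its CpGs in capitals.
Tdo2 intron 6: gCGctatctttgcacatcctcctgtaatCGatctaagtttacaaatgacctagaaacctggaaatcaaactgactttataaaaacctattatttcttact
It had 38.9% ± 12.6 in liver, 90.3% ± 3.3 in brain and 91.2% ± 2.1 in heart (SD), lower in liver by 51.5 and 52.3 points, each ± 4.5 (SE; limma adjusted p = 3.7e-10 and 2.8e-10). At the edge of exon 10, the tile centred 14177 bp after the start had 17.7% in liver, 66% in brain and 22.4% in heart.

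Mat1a makes S-adenosylmethionine, the methyl donor, from methionine in the adult liver, a reaction for which most other tissues use Mat2a. Its 5 promoter tiles ran from 18.0% (median 22.6%) to 31.5% in liver, from 78.2% (median 79.6%) to 83.0% in brain and from 64.2% (median 69.3%) to 71.2% in heart. The 3 tissues did not overlap. Liver was lower by 56.0 ± 1.9 points than brain and by 44.4 ± 1.9 points than heart (SE; limma adjusted p = 2.2e-18 and 4.2e-16), and the two-sided exact permutation test of the library means gave p = 5.4e-05 for each, the smallest it can give with 12 and 6 libraries. The promoter of Mat2a, by contrast, was under 10% in all 3 tissues.

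The Mat1a promoter had a sharp outer edge and an inner tile that differed in heart. The tile centred 1082 bp before the start had 91.8% in liver, 90.9% in brain and 89.9% in heart, all of it repeat sequence in the reference, and the next tile, 100 bp nearer, had 36.1, 86.7 and 83.8%. The largest difference was 882 bp before the start, at chr14:41104101-41104200, with 19.5% ± 5.6 in liver, 84.6% ± 5.8 in brain and 81.4% ± 3.1 in heart (SD). In exon 1, 118 bp after the start, heart was close to liver, with 11.8% in liver, 70.6% in brain and 22.9% in heart. Brain was called higher than heart there, and over the whole promoter by 11.6 ± 2.2 points (SE; limma adjusted p = 0.00024), a difference that was 2.55 points with the part before the start alone.

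All 4 body tiles of Mat1a lay in the 3′ UTR, so they say little of the rest of the gene. They ran from 70.8% (median 75.6%) to 80.4% in liver, from 72.8% (median 75.8%) to 79.0% in brain and from 61.1% (median 63.4%) to 70.6% in heart. Liver and brain overlapped, and both were called higher than heart, by 10.9 ± 1.4 and 11.6 ± 1.6 points (SE; limma adjusted p = 1.8e-07 and 1.1e-06), calls that were lost at 5.36 and 6.12 points after the shift to a common library mean. No single tile passed the threshold.

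The 161 tiles were also set out by their number of CpGs. The tiles with 5 or more CpGs had a median level of 3.7% in liver, 9.97% in brain and 5.4% in heart, those with 3 to 4 CpGs 49.7, 73.9 and 79.3%, and those with 1 to 2 CpGs 40.3, 75.2 and 70.2%. Within gene bodies the densest tiles were not the lowest, with medians of 53.7% in liver, 86.1% in brain and 78.4% in heart for 5 or more CpGs, 59.3, 84.6 and 80.8% for 3 to 4 and 43.7, 74.8 and 69.9% for 1 to 2. Of the 30 tiles with 5 or more CpGs, 3 were called lower in liver than in both tissues. Of the tiles with 1 to 2 CpGs 22 of 78 were called lower in liver than in both, and of those with 3 to 4 CpGs 15 of 53. Within gene bodies alone the counts were 17 of 67, 13 of 43 and 3 of 15 in the same order of density. For each CpG class the share over all tiles was not computed, so these counts do not tell whether a class is unusual. The brain and heart medians of 9.97 and 5.4% over the 30 tiles with 5 or more CpGs pool 15 body tiles with promoter and far upstream tiles. The body tiles, with medians of 86.1 and 78.4%, had room for a call, and the 3 called tiles all lay there. Around the start, Ass1 and Nags had 54 and 64 CpGs within 500 bp, Asl had 33 and the other 6 genes had 6 to 20, and the member promoters called lower in liver than in brain all belonged to those 6. The promoters of Ass1 and Nags had brain means of 1.7 and 8.2%, so a drop of 10 points was not possible there. Of those 6 genes, Cps1, Tat and Tdo2 had no measured promoter. In 17 tiles at least 50 of the 100 bases were masked as repeat in the reference, and 2 of these were called lower in liver than in both tissues. They were the intron 6 tile of Hpd and the promoter tile of Mat1a centred 982 bp before the start. The median SD between libraries of a tissue over the 161 tiles was 6.1 points in liver, 4.9 in brain and 4.1 in heart.

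Of 45 further genes of ammonia handling and amino acid metabolism, also chosen with earlier results of these data known, 34 had a measured promoter. In 7 of the 34 liver was lower than both tissues, against 2.04% of all promoters, and higher than both in 1, against 2.27%. The 7 were Agxt, which detoxifies glyoxylate, Haao of tryptophan breakdown, Prodh2 of hydroxyproline breakdown, Bhmt, which remethylates homocysteine, Hal, the first enzyme of histidine breakdown, Dmgdh of choline breakdown and Gnmt, which uses up S-adenosylmethionine. Agxt had 21.9% ± 4.9 in liver (SD, n = 12), 88.0% ± 3.1 in brain and 81.1% ± 4.0 in heart (SD, n = 6 each), and Haao had 20.5, 81.5 and 78.9%. Prodh2 had 21.5, 75.8 and 70.9%, Bhmt 20.1, 78.6 and 58.4%, and Hal 21.6, 68.4 and 58.2% in the same order. Dmgdh and Gnmt were lower throughout, with 9.4, 32.4 and 23.8% and with 11.4, 30.2 and 26.5%. The exception was Bcat2, the branched-chain aminotransferase that works mainly outside the liver, with 68.4% ± 3.6 in liver, 42.1% ± 0.79 in brain and 40.9% ± 0.53 in heart. Of the 7 promoters low in liver, that of Prodh2 was 1 tile and that of Agxt 2 tiles. Far upstream, the 5 tiles of Prodh2 went the other way, with 71.2% in liver, 46.7% in brain and 40.4% in heart. There Agxt, Gnmt and Dmgdh were called higher in liver than in heart, and Bhmt and Hal lower than in both tissues. In 19 of the 34 promoters, among them Ahcy, Glud1, Fah and Slc25a15, the mean was under 10% in all 3 tissues. The median difference over the 34 promoters was -1.1 points for liver minus brain and -0.031 for liver minus heart, against 0.36 and 0.33 over all promoters.

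**Figure D5:**
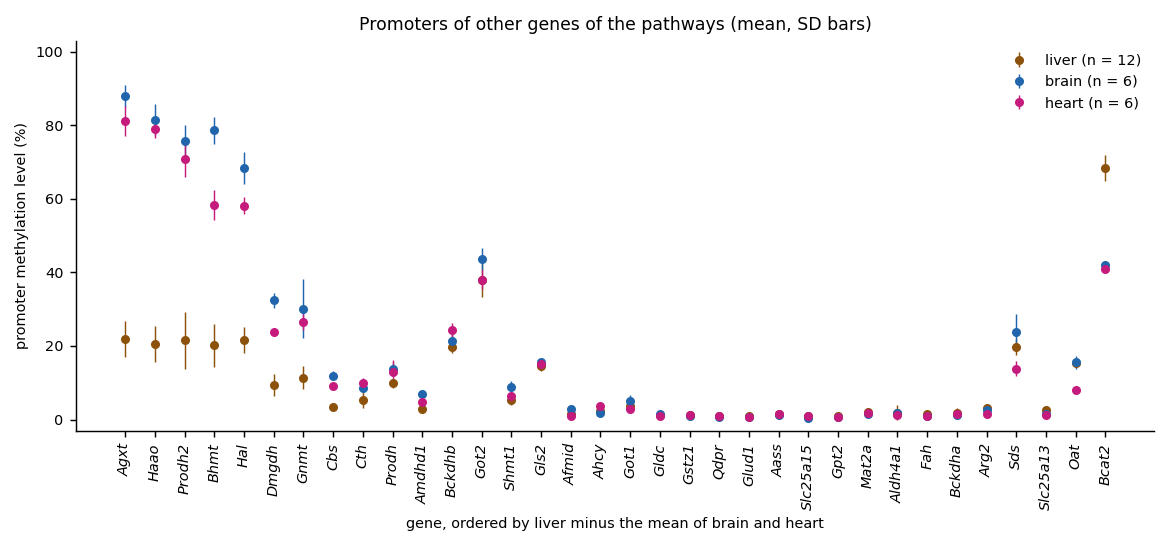
Promoter methylation level (%, mean with SD bars over 12 liver, 6 brain and 6 heart libraries) of the 34 further pathway genes with a measured promoter, ordered by liver minus the mean of brain and heart. The 7 genes at the left are lower in liver, Bcat2 at the right is higher in liver, and most of the rest lie under 10% in all tissues.

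All 45 of these genes had a measured body, and liver was lower than brain in 20, against 7.63% of all bodies, lower than heart in 12, against 4.36%, and lower than both in 12, against 3.85%. It was higher than heart in 3 (Got2, Prodh2 and Dmgdh), against 19.9%. The Gnmt body had 30.5% ± 4.4 in liver, 83.1% ± 10.2 in brain and 87.5% ± 2.6 in heart, and that of Shmt1, which converts serine to glycine, had 37.2, 78.3 and 80.0%. Prodh, of proline breakdown, had 45, 79.1 and 71.4%. Dmgdh and Prodh2 were thus lower in liver in the promoter and higher than heart in the body, and heart was the lower tissue over all bodies, by a median of 4.9 points from liver.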

How the data were processed

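Levels were measured in 24 libraries by enhanced reduced representation bisulphite sequencing, and a sequencing service made and mapped the libraries with its own methods. The submitters' processing notes name Bismark, methylKit and mm10. The authors deposited a methylation level per 100 bp tile and library as a fraction between 0 and 1, for tiles covered by more than 10 reads in every replicate of the tissue and below an upper percentile of coverage, and without sex chromosomes. No coverage was given, so depth and the counting error of a level are unknown, and a tile near the minimum weighs as much as a deep one. Tiles that pass the minimum in every library favour CpG-rich fragments.

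Each table was taken as the tissue it is named for, and its number of columns equals the number of labelled samples. Column numbers name no mouse. Some brain, heart and liver libraries come from the same mice and were treated as independent. No 2 columns of values were alike (at most 1.67% of tiles equal).

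Fractions were multiplied by 100, tiles were joined across tables and assigned to a zone by their centre, and promoter and body levels were means over tiles. Differences were fitted with limma 3.58.1 in R 4.3.3 (trend and robust) on the percent scale over all features, with all 24 libraries, Benjamini-Hochberg adjustment and the thresholds given above. Adjusted p-values refer to this fit. The fit was tested on simulated data. Tables and figures used Python 3.11.15 with pandas 2.3.3, scipy 1.17.1 and matplotlib 3.10.9.

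The 9 genes and the lists were chosen with earlier results of these data known. Named were all 9 genes, the tile of each with the largest difference of liver from the mean of the other tissues, in the promoter and in the rest, and pathway genes whose promoter was called in both liver comparisons; other tiles, body examples and stretches within genes were chosen after their values were seen. Alternatives covered the scale, the size needed for a call, 2 tissues only, the variance prior, all tiles of each table, at least 3 tiles, the window, the transcription start, the median over tiles, an exact permutation test and leaving out each library. A shift of every library to a common mean was added after seeing the data.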

Additional observations from a re-analysis of the deposited data

Results flagged for a closer look

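Among 38 sets of 6 libraries (a promoter, body or upstream region of 1 gene in brain or heart) 3 had a library far from the others by Dixon's criterion, where chance gives about 1 in 20. The Hpd promoter, which is 1 tile, had a heart library at 64.7%, with the next at 85.0% and the highest at 96.7%. In the far upstream tiles of Arg1 1 brain library was at 88.7%, with the next at 91.95% and the highest at 93.4%. At the Ass1 promoter 1 brain library was at 2.19%, with the next at 1.75% and the lowest at 1.49%.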

How the results depend on the processing

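With 10 in place of 25 points the tiles called were 95 for liver and brain, 81 for liver and heart and 50 for brain and heart, against 63, 48 and 20. With 25 in place of 10 points the bodies called were 2, 1 and 0 in the same order, against 7, 8 and 3; the 3 called differences between brain and heart were all under 25 points, which left 0, while 7 bodies had an unadjusted p under 0.05 in limma. Promoters called between liver and heart were 1 rather than 2 with at least 3 tiles and with the part before the start alone, since the Hpd promoter is 1 tile after the start. Promoters called between brain and heart were 1 rather than 2 with 25 points, with the windows of 1000 and 5000 bp to the start and 2000 bp before to 500 bp after, and with libraries shifted to a common mean. Leaving out each library in turn gave 60 to 65, 46 to 49 and 19 to 22 tiles, 3, 2 and 2 promoters and 7, 8 and 3 bodies.

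Differences that changed sign had not been called. With the common mean they were Ass1 promoter, -4.86 for liver minus heart and -4.93 for brain minus heart, Asl promoter, -3.40 for liver minus heart, Nags promoter, -1.16, and the bodies of Asl, -1.25, Arg1, -2.86, and Hpd, -2.89, for brain minus heart; this shift raises the heart libraries and so lowers every difference from heart. With all tiles of each table they were Asl promoter, 1.46, and Mat1a body, 5.05, for liver minus brain, and Hpd promoter, -2.08, for brain minus heart. With the median over tiles they were Ass1 promoter, -0.13, and Mat1a body, 0.97, for liver minus brain. Leaving out each library, the Ass1 promoter gave -0.023 to 0.267 for liver minus brain, with the lowest value without liver replicate 8. For single genes, 420 of the other values kept sign and call, 9 lost the call and 6 gained it. With the scale, the variance prior, only 2 tissues and the permutation test, the difference itself could not change. Those settings could alter only the p-value, which was unadjusted for the permutation test.

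No paired analysis was possible because the columns carry no mouse. A higher coverage minimum was not run, since the tables give no coverage, and depth therefore cannot be set against any difference. A gene is seen through the tiles present in all 3 tables, which left 3 promoters unmeasured.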
